A study of Homo sapiens with 5 samples.

Results

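The direct comparison of the AUF1 and HuR knockdowns set RNA from WI-38 cells given siRNA against AUF1 beside RNA from the same line given siRNA against HuR, without the control siRNA library. Its members were the genes whose annotated transcripts, added up, averaged an FPKM of at least 5 over these 2 libraries and had no transcript of status FAIL in either. FPKM counts fragments for each kilobase of a transcript's length and corrects for library size, so that levels can be set side by side between genes as well as between libraries. These were 7355 of the 49776 genes listed in both tables, and 6249 of them code for protein.

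WI-38 is an established diploid fibroblast line from human lung that stops dividing after a limited number of population doublings. The study sequenced 5 libraries of its total RNA, namely untransfected cells at population doubling level (PDL) 15 and at PDL 55, and cells at PDL 15 given control, AUF1 or HuR siRNA. Both cultures compared here were at PDL 15 and both were transfected, and by the labels they differ in the siRNA target alone. The sources used here do not give the siRNA sequences, the dose or the time from transfection to harvest. Each culture gave 1 library, so no value has a replicate, no test across libraries was possible, and no p-value is given. The intervals printed are the 95% bounds that the deposited tables give for each estimate within its library, added over the transcripts of a gene.

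AUF1 (gene HNRNPD) and HuR (gene ELAVL1) are RNA-binding proteins that recognise AU-rich and U-rich stretches, many of them in the 3′ untranslated regions of mRNAs for growth regulators, cytokines and cell cycle proteins. HuR is best known for stabilising such mRNAs. AUF1, made as 4 isoforms by alternative splicing, is best known for promoting their decay, although it also stabilises some targets, and the pair can bind the same mRNAs. In fibroblasts both proteins have been linked to proliferation and to replicative senescence, the permanent arrest that follows many doublings.

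Depth was close in the pair of libraries. The deposited coverage per unit of FPKM, which scales with depth, had a median of 1.25 with AUF1 siRNA and 1.14 with HuR siRNA, and annotated transcripts held 71.9% and 71.7% of the FPKM weighted by length, with assembled transcripts holding the rest. The control siRNA library, which enters no ratio here, had a coverage of 0.300 per unit of FPKM and an annotated share of 19.6%. Its values, printed below beside those of other libraries, thus rest on lower depth and a smaller annotated share. The positions given relative to it carry that limit. The 20 fibroblast and mesenchymal markers examined summed to an FPKM of 1930 with AUF1 siRNA and 2100 with HuR siRNA, and COL1A2, a chain of type I collagen, led them at 1112 and 831. VIM, which encodes vimentin and is a defining mesenchymal gene, was listed at 0 in all 5 libraries in its annotated transcripts. Epithelial markers summed to 18.7 and 13.5 over 18 genes, endothelial markers to 7.91 and 13.6 over 11, and blood and macrophage markers to 52.7 and 56.5 over 14. Of these, 15 of 18, 9 of 11 and 10 of 14 were under an FPKM of 1 in both libraries, and NKX2-1 (lung epithelium) and TYROBP (myeloid cells) were listed at 0 in both. The sums came mostly from the keratins KRT19 (9.24 and 6.10) and KRT18 (6.93 and 4.25), the angiopoietin receptor gene TEK (4.19 and 10.8), and CD163 (19.4 and 16.3), CSF1R (16.5 and 21.8) and CD68 (15.5 and 16.2) of macrophages. The part of other cell types in the results was not tested beyond these values. In RNA from a whole culture, fewer cells that express a gene and less RNA per cell cannot be told apart.

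The mRNA of AUF1 stood far apart between the cultures. HNRNPD (ENSG00000138668) spans 83273651 to 83295656 on chromosome 4 of hg19. Its FPKM was 20.3 with AUF1 siRNA (95% bounds 16.7 to 24) and 120.3 with HuR siRNA (111 to 130), so that its level in the AUF1 knockdown was 16.9% of that in the HuR knockdown. The HuR knockdown lay at the level of untransfected PDL 15 cells, 119, while HNRNPD was 61.2 with control siRNA and 42.3 at PDL 55. The 3 transcripts of HNRNPD with the most signal in the HuR knockdown were all lower in the AUF1 knockdown. They were ENST00000509263 at 9.90 against 55.6, ENST00000307213 at 6.94 against 40.3, and ENST00000513584, listed at 0 with AUF1 siRNA and at 24.3 with HuR siRNA. ENST00000543098 went the other way, at 3.50 with AUF1 siRNA and listed at 0 with HuR siRNA.

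The mRNA of HuR differed less. ELAVL1 (ENSG00000066044) spans 8023458 to 8070529 on chromosome 19 of hg19. Its FPKM was 17.7 with AUF1 siRNA (16.3 to 19.2) and 9.72 with HuR siRNA (8.59 to 10.8). The intervals did not overlap, and the HuR knockdown held 54.8% of the ELAVL1 level of the AUF1 knockdown. Both annotated transcripts of ELAVL1 differed the same way, at 14.6 against 8.09 for ENST00000351593 and 3.16 against 1.63 for ENST00000407627. An assembled transcript at the ELAVL1 locus had an FPKM of 5.11 with HuR siRNA and none was listed with AUF1 siRNA, so the ELAVL1 ratio falls from 0.96 to 0.39 on the log2 scale when assembled transcripts are added. ELAVL1 stood at 16.7 in untransfected PDL 15 cells and at 11.8 with control siRNA (9.38 to 14.1). The bounds with control siRNA overlap those of the HuR knockdown, so these 2 libraries are not separated in ELAVL1. The direct comparison thus holds a large difference in HNRNPD mRNA and a smaller one in ELAVL1 mRNA, and protein was not measured.

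Ratios of all members were computed as log2((FPKM + 1)/(FPKM + 1)), AUF1 siRNA over HuR siRNA, and are given relative to the median member, which lay at -0.15 on the deposited scale. The scale understates differences of genes at low levels. On it HNRNPD had a ratio of -2.36 and ELAVL1 of 0.96. Most genes were close between the knockdowns, since 4603 members, 62.6%, lay within 0.5 of the median and the quartiles were -0.37 and 0.37. At least 2-fold higher with AUF1 siRNA were 481 members (6.54%) and at least 2-fold lower were 465 (6.32%), together 946 (12.9%). Without the centring the split was 359 higher and 640 lower. The bounds of the estimates did not overlap for 471 of the 481 and for 460 of the 465, but they did not overlap for 4019 of all members (54.6%) either, so separate bounds are not particular to the genes 2-fold apart.

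The rule's limit of 5 fell among ordinary genes. Just inside it were FOXF2, a transcription factor of lung mesenchyme, at 4.35 with AUF1 siRNA and 5.66 with HuR siRNA, the integrin subunit gene ITGAV at 3.68 and 6.33, and ARHGAP18, listed at 0 and at 10.0. The named genes just outside were CDCA7L at 5.65 and 4.34 and the dynein gene DNAH5 at 3.32 and 6.67.

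**Figure D1:**
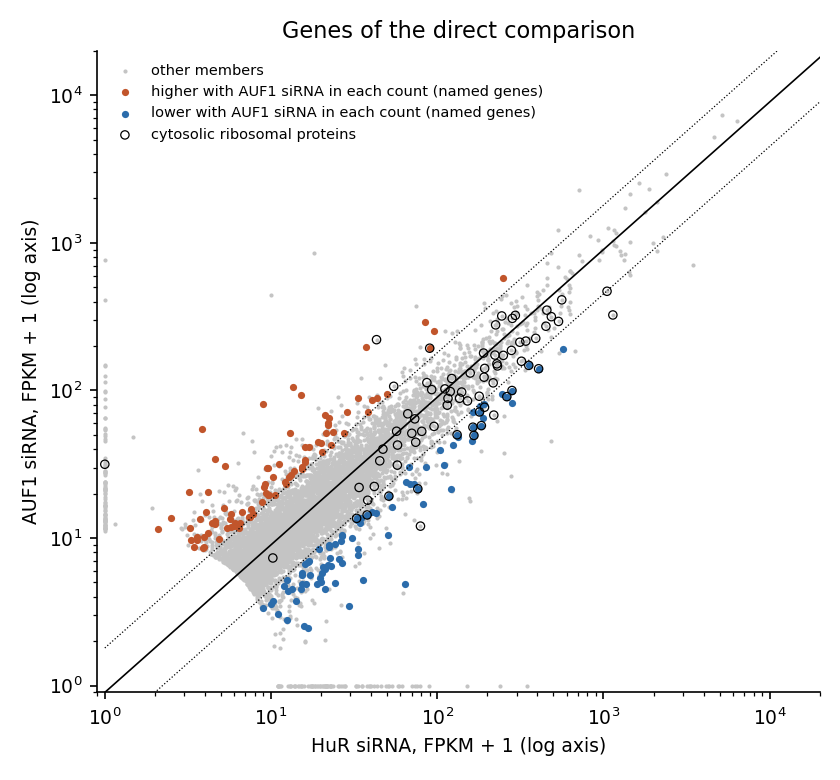
FPKM + 1 of each member with HuR siRNA (horizontal log axis) and with AUF1 siRNA (vertical log axis), with named genes at least 2-fold apart in every transcript count coloured and ribosomal protein genes circled. The solid line marks the median ratio and the dotted lines 2-fold to either side; points along the axes are the 162 members listed at 0 in 1 library, and most ribosomal protein genes lie below the solid line.

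A large share of the most extreme ratios came from genes listed at exactly 0 in 1 library. Of the members 2-fold apart, 83 were at 0 with HuR siRNA and 79 at 0 with AUF1 siRNA, and at 63 and 64 of these loci the same library listed an assembled transcript. ACTG1, cytoplasmic actin, shows the pattern, with annotated transcripts at 767 with AUF1 siRNA and 0 with HuR siRNA, where an assembled transcript at its locus held 1880. PPIB, a cyclophilin of the endoplasmic reticulum, was listed at 0 with AUF1 siRNA and at 239 with HuR siRNA, beside an assembled transcript at 139 in the AUF1 library. No fold is given for such genes.

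The naming rule asked in addition for intervals apart and at least 1.5-fold in the same direction in 4 other ways of counting transcripts, which 242 higher members (3.29%) and 263 lower members (3.58%) met. By size of ratio it reached only genes at 0. The 15 highest were SIL1, MAP1B, ARPC4-TTLL3, SRPK2, TRAF3IP2-AS1, CHTF8, PEX19, ZFAS1, SKP1, GAB2, PLTP, CAV2, OGA, S100A13 and C11orf58, all listed at 0 with HuR siRNA and at 22.7 (C11orf58) to 411 (SIL1) with AUF1 siRNA. The 15 lowest were PPIB, NOLC1, REEP5, ABCF1, MATR3 under 2 gene identifiers, NKAPD1, TFPI, NSA2, RRM1, SERP1, ATPAF1, ITFG2, PDE4DIP and TIA1, all listed at 0 with AUF1 siRNA and at 21.9 (TIA1) to 239 (PPIB) with HuR siRNA. For PEX19, PLTP, CAV2, C11orf58, ARPC4-TTLL3, NKAPD1, NSA2 and TIA1, no assembled transcript was listed at the locus in either library. Several of these were at 0 in libraries without either knockdown as well: CAV2, which encodes a caveolin, was at 0 in untransfected PDL 15 cells and with control siRNA, and so were NKAPD1 and TIA1.

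A stricter set was therefore described in more depth, chosen after the values were seen. It holds the members above 0 in both libraries whose intervals were apart and whose ratio was at least 2-fold in the same direction in each of 5 counts: the main one, one with assembled transcripts added, one without transcripts of status LOWDATA, one of the most abundant transcript alone, and one of FPKM weighted by transcript length. A count that gave no value for a gene was passed over. It comprised 124 genes higher with AUF1 siRNA (1.69% of members) and 122 lower (1.66%), of which 84 and 87 have a gene name that is neither clone-based nor that of a pseudogene. Among all members above 0 in both libraries, 398 were 2-fold higher (5.53%) and 386 lower (5.37%) in the main count alone. HNRNPD belongs to the stricter set and ELAVL1 does not.

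The largest ratio among named genes of the stricter set belonged to DPF3, a reader of acetylated histones in a chromatin remodelling complex (hg19 chromosome 14, 73128584 to 73360809). Its FPKM was 54.2 with AUF1 siRNA (49.96 to 58.4) and 2.86 with HuR siRNA (2.50 to 3.22), a log2 ratio of 3.99. The ratio was 1.12 once assembled transcripts, at 42.7 and 46.5, were added, so its size depends on which transcripts are counted. UCP2, an uncoupling protein of the inner mitochondrial membrane, was less dependent on the count. UCP2 (hg19 chromosome 11, 73685712 to 73694352) had 104 (94.7 to 114) against 12.6 (9.91 to 15.3), a ratio of 3.11, with no assembled transcript listed in either library. It stood at 16.7 in untransfected PDL 15 cells, 17.02 with control siRNA and 13.2 at PDL 55, so only the AUF1 knockdown was far from the other 4 libraries. USB1, the exonuclease that trims the 3′ end of U6 small nuclear RNA, was also free of assembled transcripts and had 92.2 (89.1 to 95.3) against 14.2 (13.02 to 15.4), a ratio of 2.77. The libraries at PDL 15 without a named knockdown held 41.04 and 33.7, between the knockdowns. SFRP1, a secreted antagonist of Wnt ligands, had 197 (192 to 203) against 36.2 (34.8 to 37.7), a ratio of 2.56. For SFRP1 it was the HuR knockdown that lay apart, below the 119 to 205 of the remaining libraries.

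Other genes of the stricter set that were higher with AUF1 siRNA included regulators of chromatin, replication and protein turnover. ATN1, the gene of atrophin-1, had 79.3 against 7.93 and was listed at 0 in the other 3 libraries. REV1, a translesion DNA polymerase, had 10.5 against 1.10, and DBF4B, an activator of the replication kinase CDC7, had 12.6 against 1.502. CUL5, the scaffold of a ubiquitin ligase, had 14.02 against 3.05, and CEP164, a protein of the centriole's distal appendages, had 19.4 against 2.23. ZNF131 had 29.6 against 4.25, LRRC32, which tethers latent TGF-beta to the cell surface, 10.7 against 2.23, and the histone H3 gene HIST1H3J 50.4 against 12.02. The antisense gene SPIN4-AS1 (19.6 against 3.15) and ANKRD18B (12.6 against 2.75) complete the leading 15. Strand was not stated, so an antisense gene and its partner cannot be told apart. FKBP1C, at 33.3 against 3.60, is a near-identical copy of FKBP1A, the target of FK506, which had 289 against 83.9. Reads of such copies can be split between them, so both values are uncertain.

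HMGA2, an architectural chromatin protein of proliferating and fetal cells that is a classic target of the let-7 microRNAs, was named after its values were seen because it was the most abundant named gene in this group (hg19 chromosome 12, 66217911 to 66360075). Its FPKM was 579 with AUF1 siRNA (565 to 592) and 246 with HuR siRNA (238 to 255), a ratio of 1.38. The libraries without a named knockdown held 346 to 440, above the HuR knockdown and below the AUF1 knockdown. EDN1, the precursor of the vasoconstrictor endothelin-1, was named in the same way, at 7.59 (6.85 to 8.33) against 2.89 (2.41 to 3.36), with 0.884 in untransfected PDL 15 cells and 1.62 with control siRNA.

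On the other side, the leading gene was TTC37, a subunit of the SKI complex that feeds mRNA to the cytoplasmic exosome (hg19 chromosome 5, 94799599 to 94890711, log2 ratio -3.55). Its FPKM was 3.88 with AUF1 siRNA (3.45 to 4.31) and 62.6 with HuR siRNA (56.4 to 68.7), and the other 3 libraries lay between, at 16.7 to 33. ERCC6L2, a helicase of the DNA damage response, had 2.45 (1.90 to 2.996) against 28.4 (23.7 to 32.98), and stood at 0 to 3.69 elsewhere. C1QTNF5, a secreted protein with a collagen stretch, had 4.19 (3.56 to 4.82) against 34.97 (33.1 to 36.8), a ratio of -2.64, with 4.63 in untransfected PDL 15 cells and 7.24 with control siRNA. For ERCC6L2 and C1QTNF5 the HuR knockdown was thus the library that lay apart. RUSC2, a Rab-binding adaptor, showed the same, at 15.7 with HuR siRNA (14.8 to 16.7) and 1.27 to 2.66 in the other 4 libraries. DMD, which encodes dystrophin, differed from these: its 15.9 with AUF1 siRNA (12.8 to 19.1) was the lowest of the 5 libraries and its 81.1 with HuR siRNA (72.6 to 89.6) the highest.

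The rest of the leading 15 covered a wide range of functions. GRIA4, a glutamate receptor subunit, had 1.55 against 14.8 and the neuronal leucine-rich repeat gene LRRN3 1.77 against 11.5, both with wide bounds in the AUF1 library (0.380 to 2.73 and 0.662 to 2.88). ZC3H15, a CCCH zinc finger protein, had 9.49 against 49.3, and GALNT5, which starts mucin-type O-glycans, 3.55 against 20.3. SLC52A2, a riboflavin transporter, had 6.69 against 32.2, with 3.75 to 5.79 in the libraries without a named knockdown. ADAM33, a membrane metalloprotease, had 4.05 against 19.05 and B4GALT4, a galactosyltransferase, 7.42 against 32.3. The noncoding genes DPH6-DT (3.96 against 23.2) and LINC02228 (5.77 against 25.7) were of similar ratio. Among the more abundant genes of the set, HSPA9, a mitochondrial chaperone named after its values were seen, had 81.1 (73.8 to 88.4) against 279 (262 to 296). F3, tissue factor, the trigger of blood clotting, had 41.6 (38.7 to 44.6) against 123 (117 to 128), with 24.7 in untransfected PDL 15 cells and 33.2 with control siRNA.

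For the stricter set, each knockdown was placed beside the PDL 15 libraries without a named knockdown. Of the 121 lower genes listed in all PDL 15 libraries, the AUF1 knockdown was below both libraries without a named knockdown for 80 and the HuR knockdown above both for 87. Of the 123 higher genes, the AUF1 knockdown was above both for 85 and the HuR knockdown below both for 69. Choosing genes by the distance between the knockdowns favours such extremes, so these counts describe the set and support nothing.

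Genes of the cytosolic ribosome were lower with AUF1 siRNA than with HuR siRNA as a group. Of 71 members, 56 lay below the median gene, 18 were at least 2-fold lower (against 6.32% of all members) and 4 at least 2-fold higher (against 6.54%), and the list's median ratio was -0.47. The 40 proteins of the large subunit had a median of -0.54 with 14 genes 2-fold lower, and the 29 of the small subunit -0.33 with 4. In the stricter set were 13 lower genes (RPL34, RPL26, RPL41, RPL32, RPL37A, RPL37, RPL23, RPL29, RPL39, RPL38, RPL27, RPS28 and RPS24) and 1 higher gene, RPS15.

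RPL34 had an FPKM of 20.5 with AUF1 siRNA (16.6 to 24.5) and 75.4 with HuR siRNA (70.4 to 80.4), a ratio of -1.67, beside 90.7 in untransfected PDL 15 cells and 60.4 with control siRNA. RPL26 had 48.5 (45.03 to 52.1) against 165 (158 to 172), and RPL41, which encodes the shortest ribosomal protein, 56.8 (52.8 to 60.7) against 183 (176 to 191). RPL32 had 55.4 (47.5 to 63.2) against 163 (150 to 176), and RPL37A, among the most abundant of the 13, 139 (133 to 146) against 406 (394 to 418). For each of these 5 the HuR knockdown was nearer to untransfected PDL 15 cells than the AUF1 knockdown was, and the level with control siRNA lay between the knockdowns. RPS15 went the other way, at 192 (186 to 199) against 89.1 (84.7 to 93.4), with 333 in untransfected PDL 15 cells and 158 with control siRNA.

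The lowest ribosomal ratio, -2.57 for RPS21 (11.05 against 78.2), was not in the stricter set, since an assembled transcript held 52.998 in the AUF1 library and the ratio with it was -0.12. The other 3 higher genes were of the same kind. RPS15A was at 30.6 with AUF1 siRNA and listed at 0 with HuR siRNA, beside an assembled 72.7 there; RPL8 was at 219.7 against 42.1, beside an assembled 224 with HuR siRNA; and RPS4X at 106 against 53.7, beside 245. Their ratios with assembled transcripts added turned to -0.90, -0.13 and -1.34. The list's median was -0.46 with assembled transcripts added, close to the main -0.47.

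Ribosomal protein mRNAs are short, with a median of 540 nucleotides for the most abundant transcript of these genes. Among protein-coding members above 0 in both libraries that were not ribosomal, the 893 under 500 nucleotides had a median ratio of 0.02 and the 1453 of 500 to 700 nucleotides 0.03. The part of transcript length in the ribosomal ratios was not tested further. Copies of ribosomal protein genes abound in the genome, and the sources used here do not say how reads that match several copies were counted.

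Ribosomal protein mRNAs are known for a 5′ terminal oligopyrimidine tract, a run of C and T right at the start of the transcript through which growth signals control their translation. The 30 bases around the annotated start of the leading 5 lower genes are printed to show where such a run lies and how it varies between them, 15 before and 15 from the start on, from RefSeq promoters of build GRCh38.p14, 5′ to 3′ on the gene's strand. Capitals mark the longest run of C and T.
RPL34: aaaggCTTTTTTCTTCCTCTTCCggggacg
RPL26: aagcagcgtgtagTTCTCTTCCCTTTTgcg
RPL41: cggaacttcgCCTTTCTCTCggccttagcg
RPL32: gggttacgacccatcagCCCTTgcgcgcca
RPL37A: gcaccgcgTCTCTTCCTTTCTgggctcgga
The windows lie at chr4:108620561-108620590 (plus strand), chr17:8383179-8383208 (minus), chr12:56116618-56116647 (plus), chr3:12841551-12841580 (minus) and chr2:216498829-216498858 (plus). The longest runs are 18, 14, 10, 5 and 13 bases, so that RPL32 holds none of 7 or more in this window. A run of 7 or more pyrimidines on the gene's strand stood in this window for 44 of the 55 ribosomal protein members with a promoter in the table (80%), for 1043 of 5184 members of any kind (20.1%) and for 7095 of all 35116 promoters (20.2%). Whether the element separates the 13 genes of the stricter set from the rest of the family was not tested.

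Cell cycle genes lay on the opposite side. Of 45 mitotic genes, 39 were above the median gene, 12 were 2-fold higher with AUF1 siRNA (6.54% of all members) and 1 was 2-fold lower, and the list's median ratio was 0.57. In the stricter set were CDC20, FOXM1, CDCA2 and NCAPG. CDC20, the activator of the anaphase-promoting complex (hg19 chromosome 1, 43824599 to 43828874), had 70.2 (65.01 to 75.4) with AUF1 siRNA and 27.5 (24.2 to 30.7) with HuR siRNA, against 14.7 in untransfected PDL 15 cells, 24.5 with control siRNA and 0.698 at PDL 55. FOXM1, the transcription factor that drives genes of the G2 and M phases, had 29.1 (26.4 to 31.7) against 14.3 (12.4 to 16.2), with 13.8 in untransfected cells and 7.82 with control siRNA. CDCA2, which targets a phosphatase to chromatin, had 50.2 (45.2 to 55.2) against 26.4 (21.9 to 30.9). NCAPG, a condensin subunit, had 12.9 (12.04 to 13.8) against 6.49 (5.83 to 7.14). For CDC20 and FOXM1 the AUF1 knockdown was thus the highest of all 5 libraries, and for FOXM1 the HuR knockdown stood near untransfected cells.

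Other mitotic genes changed with the transcripts counted. MKI67, the proliferation marker Ki-67, was at 27.3 with AUF1 siRNA and listed at 0 with HuR siRNA, where an assembled transcript held 27.3. RACGAP1, a centralspindlin subunit, had 11.5 against 2.05, with an assembled 11.8 in the HuR library and a ratio of -0.10 once it was added. PRC1, the 1 gene that was 2-fold lower, had 4.59 against 16.2 and an assembled 8.08 in the AUF1 library. The mitotic median was 0.61 with assembled transcripts added, so the list's position does not rest on these genes. CDC25B, the phosphatase that starts mitosis, had 28.2 against 8.16, and CKAP2, a spindle protein, 34.8 against 13.7, both 2-fold higher in the main count but not in every count.

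Lists next to mitosis were closer to the median gene. Of 19 genes of S phase and DNA replication, 16 lay above the median gene, 3 were 2-fold higher and 1 lower (6.54% and 6.32% of all members), with a list median of 0.22. MCM7, a subunit of the replicative helicase, had 38.1 against 20.5, and RFC1, of the clamp loader, 12.9 against 5.71. The RFC1 ratio of 1.20 came to 0.001 for the most abundant transcript alone, and no gene of this list was in the stricter set. Of 18 histone genes 4 were 2-fold higher and 1 lower, against the same shares, with a median of 0.18. The lower gene was listed at 0 with AUF1 siRNA beside an assembled transcript at 159.8. Its ratio was 0.10 with assembled transcripts added. Of the 4 higher genes, 1 was listed at 0 with HuR siRNA beside an assembled 18.8, and its ratio turned to -0.41. HIST2H2AC (28.7 against 8.58) and the linker histone HIST1H1B (9.13 against 2.95) were in the stricter set, and HIST1H1E had 45.6 against 22.9. HIST2H2AC was 64.9 with control siRNA, above both knockdowns. Replication-dependent histone mRNAs lack a polyA tail, and the amplification used covers RNA with and without one.

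Among 12 CDK inhibitors, G1 cyclins and members of the RB-E2F axis, 2 were 2-fold higher and 1 lower (6.54% and 6.32% of all members). CDK4, the kinase that pairs with D-type cyclins, had 70.98 (65.6 to 76.4) against 37.3 (33.4 to 41.3), with 75.8 in untransfected PDL 15 cells, near the AUF1 knockdown, and 25.8 with control siRNA, below both knockdowns. CDKN1A, the p21 inhibitor of cyclin-dependent kinases and a described target of both proteins, had 392 (379 to 405) against 190.3 (187 to 193). It was higher in both knockdowns than in untransfected PDL 15 cells (145) and with control siRNA (74.2), and stood at 351 at PDL 55. The CDKN1A ratio was 1.19 in the main count, 0.45 when FPKM was weighted by length and -0.12 for the most abundant transcript alone, so it differed by isoform. Of 22 p53 targets, only CDKN1A was 2-fold higher and none was lower, beside 6.54% and 6.32% of all members. The list's median was 0.10.

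Among genes of the extracellular matrix and of the senescence-associated secretome, more were 2-fold lower than 2-fold higher with AUF1 siRNA. Of 53 matrix genes, 32 lay below the median gene and 21 above, 12 were 2-fold lower (6.32% of all members) and 2 higher (6.54%), with a median of -0.21. COL3A1, COL4A1, COL5A1, DCN, EFEMP1 and POSTN were in the stricter set, all lower. Of 29 secreted factors linked to senescence, 20 lay below the median gene and 9 above, 8 were 2-fold lower and 3 higher, with a median of -0.49, and CCL2, MMP1, FGF7 and IGFBP7 were in the stricter set.

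COL3A1, the chain of type III collagen, had 44.3 (41.8 to 46.8) with AUF1 siRNA and 161 (156 to 165) with HuR siRNA, a ratio of -1.68. DCN, the proteoglycan decorin, had 47.7 (43.4 to 51.97) against 133 (125 to 141), and POSTN, periostin, 12.6 (10.7 to 14.5) against 33.7 (30.96 to 36.5). In untransfected PDL 15 cells these 3 stood higher still, at 224, 314 and 155, and with control siRNA they stood at 38.9, 58.5 and 16.9, near the AUF1 knockdown. COL4A1, a basement membrane collagen, differed in kind: its 63.6 with HuR siRNA (61.9 to 65.3) was above all other libraries, which lay between 9.03 and 22.98. COL5A1 had 9.28 (8.89 to 9.68) against 25.7 (25.1 to 26.3), with 4.32 to 14.1 in the libraries without a named knockdown. EFEMP1, a fibulin, had 38.2 (35.3 to 41.1) against 103 (97.98 to 108). The 2 higher matrix genes, FBLN5 (31.01 against 5.32) and COL6A3 (196 against 77.7), had assembled transcripts of 51.4 and 340 with HuR siRNA. Their ratios turned to -0.70 and -0.31 when these were added. COL16A1, at 2.51 against 13.8, had the lowest ratio of the list, -1.93. The fibroblast markers as a whole, 17 members, had 12 below the median gene and 5 above, with a median of -0.49. Among them 5 were 2-fold lower (6.32% of all members) and none higher (6.54%). Of the 5 lower markers, COL3A1, DCN and COL5A1 are also matrix genes. Another of these was listed at 0 with AUF1 siRNA beside an assembled transcript at 73.7. Its ratio was -0.25 with assembled transcripts added.

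Among the secreted factors, CCL2, a chemokine for monocytes, had 2.04 (1.40 to 2.69) against 9.99 (8.49 to 11.5), with 15.2 in untransfected PDL 15 cells, 11.3 with control siRNA and 90.3 at PDL 55. MMP1, interstitial collagenase, had 22.1 (20.7 to 23.5) against 68.0 (65.5 to 70.5), and was listed at 0 in untransfected PDL 15 cells and at 19.6 with control siRNA. IGFBP7, a secreted insulin-like growth factor binder, had 77.9 (73.5 to 82.3) against 180.1 (173 to 187). FGF7, the keratinocyte growth factor, had 4.66 (4.23 to 5.09) against 14.4 (13.6 to 15.3). Untransfected PDL 15 cells and control siRNA held 24.6 and 54.3 of IGFBP7 and 13.3 and 8.64 of FGF7. For MMP1 and IGFBP7 both knockdowns thus stood above these libraries, and for FGF7 the HuR knockdown stood above and the AUF1 knockdown below. For CCL2 both stood below them, but the bounds with HuR siRNA include the value with control siRNA. IGFBP4 had 26.8 against 106, with larger assembled transcripts in both libraries, 179 and 320. MMP2, a gelatinase, was 2-fold higher with AUF1 siRNA, at 253 against 109.6, and IGFBP5 was listed at 0 with HuR siRNA and at 147 with AUF1 siRNA, beside assembled transcripts of 372 with HuR siRNA and 172 with AUF1 siRNA, which turn its ratio to -0.070.

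Cholesterol synthesis had the highest median ratio among the lists with at least 5 members, 0.68. Of 18 members, 16 lay above the median gene, 4 were 2-fold higher with AUF1 siRNA (6.54% of all members) and none was lower (6.32%). LSS, lanosterol synthase, had 18.6 (15.8 to 21.4) against 5.38 (4.63 to 6.14). FDPS, farnesyl diphosphate synthase, had 42.2 (37.01 to 47.3) against 21.1 (19 to 23.3), and CYP51A1, lanosterol demethylase, 8.24 (6.30 to 10.2) against 3.97 (2.76 to 5.18). In untransfected PDL 15 cells these 3 were higher than in either knockdown, at 43.9, 88.4 and 22.6. With control siRNA they were at 8.64, 13.9 and 2.32, between the knockdowns for LSS and below both for FDPS and CYP51A1. FADS2, a fatty acid desaturase, was at 11.997 with AUF1 siRNA and listed at 0 with HuR siRNA, with an assembled 17.9 in the HuR library, and its ratio was -0.39 with that added. No gene of the list was in the stricter set, and FDPS turned to -4.32 for its most abundant transcript alone, while the list's median was 0.54 with assembled transcripts added.

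The regulators of mRNA stability themselves had a median ratio close to that of all members, 0.02. Of 25 proteins that bind AU-rich elements, 3 were 2-fold lower with AUF1 siRNA (HNRNPD, NCL and TIA1) and 1 higher (CELF1). The shares over all members were 6.32% and 6.54%, and HNRNPD is the target of the AUF1 siRNA itself. HNRNPDL, a close relative of AUF1, had 74.7 (69.7 to 79.7) against 66.5 (61.3 to 71.7), and HNRNPAB 26.5 against 32.05. ZFP36L1, a decay factor of the tristetraprolin family, had 96.9 (93.6 to 100.1) against 166 (162 to 170), a ratio of -0.62 that turned to 3.11 without its transcripts of status LOWDATA. ZFP36L2 had 6.92 against 5.08. KHSRP, another decay factor, had 14.5 against 13.3 with overlapping bounds, TIAL1 34.1 against 33.7, and PUM2 9.69 against 10.7. NCL, nucleolin, which is also described as a partner in HuR and AUF1 ribonucleoproteins, had 179 (172 to 186) against 540 (521 to 560). The NCL ratio was -1.44 in the main count, -0.55 for the most abundant transcript alone and -8.95 without transcripts of status LOWDATA. CELF1 had 37.6 (33.5 to 41.7) against 11.96 (11.01 to 12.9), but its ratio was 0.68 when FPKM was weighted by length. IGF2BP3, a fetal mRNA-binding protein, had 134 against 98.4, a ratio of 0.59 that turned to -0.33 for the most abundant transcript alone, and PCBP2, a poly(C) binder, 51.6 against 31.9.

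Of 37 genes of deadenylation, decapping and the exosome, 2 were higher and 2 lower (6.54% and 6.32% of all members), with a median of 0.08. TOB2, which recruits the CCR4-NOT deadenylase, was in the stricter set, at 11.6 (11.03 to 12.2) against 5.47 (5.06 to 5.88). EXOSC9, an exosome core subunit, was listed at 0 with AUF1 siRNA and at 20.4 with HuR siRNA, and also at 0 with control siRNA. An assembled transcript at its locus held 7.47 in the AUF1 library, and the EXOSC9 ratio was -1.17 with it added. Of 11 genes of microRNA processing only DGCR8, the partner of Drosha, was 2-fold apart relative to the median gene, at 23.5 against 11.02. Of all members, 6.54% were 2-fold higher. Without the centring, further genes of this list were more than 2-fold lower with AUF1 siRNA. The DGCR8 ratio was 1.18 in the main count, 0.18 when FPKM was weighted by length and 4.14 for the most abundant transcript alone.

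The mRNAs described as bound by AUF1 or HuR did not fall on 1 side. Of 27 members, 17 lay above and 10 below the median gene, and the median was 0.23, with none in the stricter set. With AUF1 siRNA 2 were 2-fold higher and 3 lower (6.54% and 6.32% of all members). The higher were CDKN1A and BIRC5, the gene of survivin (12.6 against 6.19), and the lower were NCL, the growth factor gene VEGFA (16.3, 11.9 to 20.7, against 39.4, 32.6 to 46.3) and CALM2, a calmodulin gene (91.3 against 213). The BIRC5 ratio of 1.07 came to 0.35 with assembled transcripts added. The list includes mRNAs described as stabilised and as destabilised, so no common direction follows from its make-up.

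AU-rich letters were set beside the stricter set because both proteins bind them. In the longest 3′ untranslated region of each protein-coding gene (GENCODE release 29), the nonamer TTATTTATT, searched on the transcript's strand, stood in 9.48% of 6191 members, in 11% of the 73 higher genes (8 genes) and in 7.41% of the 81 lower genes (6 genes). The shorter ATTTA, which the nonamer contains, stood in 76.4%, 75.3% and 87.7%. A run of 7 T, a description of U-rich sites as HuR binds them, stood in 56.1%, 58.9% and 55.6%, and CTACCTC, the match to the let-7 seed, in 10.5%, 13.7% and 11.1%. Median lengths of these regions were 1490, 1447 and 1609 nucleotides. A match is a description of the letters and not a binding site.

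Nonamers stood on both sides of the comparison. The first such match is printed for the 5 named genes of the stricter set with the largest ratio in each direction among those that hold one, to show the letters around it, in 29 bases 5′ to 3′ on the gene's strand, with the nonamer in capitals; the sequences are GENCODE transcripts placed on GRCh38. Higher with AUF1 siRNA were these.
DPF3: gttaactattTTATTTATTtcaatattta
USB1: catgttgcttTTATTTATTtacttttact
GCNT2: ttctaaatatTTATTTATTctaacaaaaa
CDCP1: ctttttattaTTATTTATTtggtggtcct
FST: aagtgtatgcTTATTTATTtggggggaaa
Lower with AUF1 siRNA were these.
RUSC2: gtttatgtatTTATTTATTtatttattat
FSTL3: tcatcccctgTTATTTATTgccacagcag
COL3A1: aaaattccagTTATTTATTtccaaaatgt
PCDH18: atcttgaaggTTATTTATTagatgactat
ZPR1: tttctgtaggTTATTTATTagtattggat
They lie at chr14:72662434-72662462 (minus strand), chr16:58021118-58021146 (plus), chr6:10628264-10628292 (plus), chr3:45085184-45085212 (minus), chr5:53486135-53486163 (plus), chr9:35561834-35561862 (plus), chr19:681750-681778 (plus), chr2:189011866-189011894 (plus), chr4:137520415-137520443 (minus) and chr11:116778859-116778887 (minus). FST and RUSC2 hold 3 nonamers each and PCDH18 holds 2. Follistatin, the product of FST, and its relative FSTL3 both bind and neutralise activins, and their genes stood on opposite sides. FST had 84.5 (78.1 to 90.9) with AUF1 siRNA against 39.8 (35.3 to 44.3) with HuR siRNA, and FSTL3 2.72 (2.40 to 3.05) against 13.2 (12.5 to 13.9). FST stood at 38.1 in untransfected PDL 15 cells, level with the HuR knockdown, and at 15.6 with control siRNA, below both knockdowns. FSTL3 stood at 2.84 and 2.44 in these libraries, near the AUF1 knockdown. GCNT2, a glycosyltransferase gene, had 11.5 against 3.58, CDCP1, a cell surface glycoprotein, 19.2 against 8.35, and ZPR1, a zinc finger protein, 6.27 against 21.8. PCDH18, a protocadherin, had 30.3 (27.7 to 33) against 109 (104 to 114).

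Organelle genes shifted by small amounts. Of 44 lysosomal genes, 37 lay below the median gene with a median of -0.24. Among the 44, 3 were 2-fold higher and 3 lower, beside 6.54% and 6.32% of all members. NPC1, the cholesterol exporter of the lysosome, was in the stricter set, at 7.66 (7.22 to 8.11) against 21.5 (20.7 to 22.2). Of 31 genes of the unfolded protein and amino acid response 24 lay below the median gene, with a median of -0.31. The 1 gene of these that was 2-fold apart was higher with AUF1 siRNA and none was lower, beside 6.54% and 6.32% of all members. Of 53 nuclear-encoded respiratory chain genes 37 lay below, with a median of -0.28. Among the 53, 5 were 2-fold lower and 2 higher, beside the same shares of all members. NDUFC2 was in the stricter set at 7.68 against 2.94. Of 37 proteasome genes 28 lay below, with a median of -0.16. Translation factors (38 members, median -0.01), splicing factors (40, 0.09), DNA repair (28, -0.02), and TGF-beta and BMP signalling (27, 0.09) had medians near 0. In the adhesion list, CDH13, a cadherin anchored to the membrane by lipid, had 251 (240 to 262) against 94.9 (90.4 to 99.5), and SDC2, syndecan-2, 14.02 (11.7 to 16.3) against 39.8 (35.6 to 43.9).

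The GC content of transcripts moved with the ratio. Over 5191 protein-coding members above 0 in both libraries, placed in 5 groups of equal size by the GC content of the most abundant transcript, the median ratio ran from -0.12 in the group poorest in GC (30.2 to 43.2%) to 0.10 in the richest (57.4 to 74.6%). In the poorest group 3.08% of genes were 2-fold higher with AUF1 siRNA and 7.80% lower. In the richest 6.84% were higher and 4.14% lower. Across genes, which are no replicates and share both libraries, Spearman's rho of ratio and GC was 0.14, and that of ratio and transcript length 0.003. Among protein-coding genes the median GC content was 49.7% for 5316 members. In the stricter set it was 53.2% for 71 higher and 44.4% for 72 lower genes of that kind. Ribosomal protein transcripts had a median of 51.5%, near that of the protein-coding members. The part of GC content in any single difference was not tested.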

How the data were processed

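The authors deposited 1 table per library with, per the file headers, an FPKM value, its 95% bounds, a coverage value and a status for every transcript. TopHat2 2.0.6, Cufflinks 2.0.2, Cuffdiff and the build hg19 are named in the submitters' processing notes. The deposited coverage, a signal of read depth per transcript, served only to compare depth, and read numbers were not given. Per the labels' protocols, total RNA was depleted of ribosomal RNA and amplified by single-primer isothermal amplification, polyA-tailed or not.

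Annotated transcripts (ENST rows) were assigned to genes by deposited identifier, GENCODE release 29 or position (97.0% of 160485) and summed. Left out were 183 genes with a FAIL row and 39 small RNA genes. With 1 library a group, 2-fold on log2((FPKM + 1)/(FPKM + 1)) relative to the median member was the threshold, and 12 alternatives were computed. The procedure was tested on simulated data. Genes named were HNRNPD, ELAVL1, the 15 highest and 15 lowest ratios that met the interval and transcript criteria, and leading members of 34 gene lists; others are marked as chosen later. The members and lists were chosen with earlier results of these data known. Python 3.11.15, pandas 2.3.3 and numpy 2.4.6 were used.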

Additional observations from a re-analysis of the deposited data

How the results depend on the processing

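The 12 alternatives covered scaling, pseudocount, filter and the transcripts counted. The count of higher genes (481) became 280 and that of lower genes (465) 283 with a pseudocount of 5. They were 868 and 837 with a mean FPKM of at least 1, 299 and 296 with at least 10, 882 and 1158 without a filter, and 830 and 911 with assembled transcripts added, settings under which another number of genes enters. Demanding 2-fold in each transcript count, added after seeing the data, left 124 and 122. HNRNPD lay between -2.51 and -2.06 in all 12 alternatives. ELAVL1 was 0.39 with assembled transcripts added and 0.75 to 1.05 otherwise. Of the 14 lists with at least 5 members and a median of at least 0.2 in size, all kept their sign under every alternative. When the same members with assembled transcripts added were asked for as well, 13 did. The median of the integrins and adhesion receptors, -0.26, came to 0.0044 with assembled transcripts added for the same members. Of the 142 named genes that were 2-fold apart, 130 kept their sign and the other 12 turned. With assembled transcripts added, the log2 ratio was -1.34 for RPS4X, -1.14 for ACTG1, -0.90 for RPS15A, -0.70 for FBLN5, -0.60 for PFKFB3, -0.39 for FADS2, -0.31 for COL6A3, -0.13 for RPL8, -0.10 for RACGAP1 and -0.070 for IGFBP5. With the most abundant transcript alone it was -4.32 for FDPS, -0.20 for RPS4X and -0.12 for CDKN1A. Of 17 named genes less than 2-fold apart, 7 changed sign in an alternative. Without LOWDATA transcripts the ratio was 3.11 for ZFP36L1, -5.05 for SLC2A1, -0.31 for LDHA, -0.041 for IGF2BP3 and 0.046 for GAS5. For the most abundant transcript alone it was -0.67 for TIAL1 and -0.46 for PUM2. Beyond the assembled transcripts listed at these loci, the cause was not tested.

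No paired analysis was possible because each group has 1 library and the labels give no replicate numbers, and with 1 library a group none can be left out. The 95% bounds cover the estimate within a library, not the spread between cultures, so a difference here is a difference between 2 libraries.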

Other observations

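Most glycolysis and hypoxia genes lay slightly above the median gene. Of 21 members, 16 lay above it, 2 were 2-fold higher with AUF1 siRNA and 1 lower, near the 6.54% and 6.32% of all members. The median ratio was 0.28, and 0.11 with assembled transcripts added. PFKP, the platelet form of phosphofructokinase, had an FPKM of 60.2 (55.5 to 65.03) with AUF1 siRNA and 24.6 (21.6 to 27.5) with HuR siRNA, with 23.1 in untransfected PDL 15 cells and 33.2 with control siRNA. LDHA, lactate dehydrogenase A, had 304 (292 to 317) against 227 (214 to 240.4), and the glucose transporter SLC2A1 53.2 against 35.9. Without transcripts of status LOWDATA these ratios turned from 0.57 to -0.31 for LDHA and from 0.71 to -5.05 for SLC2A1. HIF1A, the oxygen-sensitive transcription factor, lay on the other side, at 64.7 (61.4 to 67.9) against 121 (116 to 126), as did its target VEGFA. PFKFB3, which makes an activator of phosphofructokinase, had 8.78 against 3.99, a ratio that turned to -0.60 with assembled transcripts added.

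Of 22 long noncoding RNAs, 15 lay below the median gene, 3 were 2-fold higher with AUF1 siRNA and 1 lower (6.54% and 6.32% of all members), with a median of -0.18. SNHG16, a small nucleolar RNA host gene, was in the stricter set, at 28.8 (27.6 to 30.1) against 8.46 (7.65 to 9.27). MALAT1, an abundant nuclear RNA, had 142 (140 to 145) against 268 (264.1 to 272), both far below the 1391 of untransfected PDL 15 cells, with 256 for control siRNA. LINC-PINT had 441 against 259 and PVT1 464 against 399.7. GAS5, whose mature RNA starts with an oligopyrimidine tract, had 56.3 (48.3 to 64.3) against 85.6 (75.3 to 95.8). Of 26 very long genes, 17 lay below the median gene, 2 were higher and 3 lower, with a median of -0.20; LSAMP, a neuronal adhesion gene, was in the stricter set beside DMD, at 79.9 (76.98 to 82.7) against 190.1 (186 to 195). Of 16 interferon-stimulated genes, 3 were 2-fold higher (6.54% of all members) and none lower, with a median of -0.16. Of these STAT2 had 20.4 against 7.16, a ratio of 1.54 that came to 0.049 with assembled transcripts added, and the ratios of the other two turned negative.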
